A study of Homo sapiens with 4 samples.

Results

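The 31 genes described here carry out cholesterol and fatty acid synthesis or control it. They were chosen by a list of gene names, with no measured value in the rule, but with earlier results of these data known. All 31 had a row among the 40205 of the table. A total of 16 encode enzymes of the sterol branch, 9 encode enzymes of the fatty acid branch, and 6 encode sterol regulatory element-binding protein (SREBP) factors, their regulators and a sterol carrier. Poly(A) RNA-seq measured them in U87MG and U251, established lines from human glioblastoma grown in DMEM with fetal bovine serum, with 4 libraries in all. In each line, a library titled KD came from cells with the hairpin sh-SRSF1, which lowers the splicing factor SRSF1, and a library titled WT from cells with the control hairpin sh-NC. All cells had received lentivirus at a multiplicity of infection of 20 and 1 week of puromycin, and whether a line was 1 clone is not given in the sources used here. Values are RPKM, read density corrected for gene length and sequencing depth. Library totals were estimated from the RPKM values and the lengths of short RNA genes. They came to 25974900 and 26298575 reads in U87MG knockdown and control, and 27953878 and 25099799 reads in U251 knockdown and control.

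Cells make cholesterol from acetyl-CoA through mevalonate, farnesyl diphosphate, squalene and lanosterol, and fatty acids from the same acetyl-CoA through malonyl-CoA. When membrane sterol is low, SCAP escorts the SREBP precursors from the endoplasmic reticulum to the Golgi, where proteases release the active factors. When sterol is high, the INSIG proteins hold SCAP back. SREBP-2, from SREBF2, acts mainly on sterol genes and SREBP-1c, from SREBF1, mainly on fatty acid genes. Glioblastoma cells are known for a strong demand for cholesterol and for SREBP-1 activity.

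Promoters of 4 members are shown because these genes differed most between the lines in how knockdown and control compared. RefSeq promoter windows, from 250 bases before to 50 bases after the gene start on GRCh38.p14, were matched for 27 of the 31 members; ACAT2, FDFT1, SQLE and FASN were not matched. Capitals mark the letters CCAAT, the core bound by NF-Y, a partner of SREBP, on either strand (ATTGG where it lies on the opposite one). INSIG1 is at chr7:155297628-155297927 on the forward strand, LSS at chr21:46228725-46229024 on the reverse strand, SCD at chr10:100346983-100347282 on the forward strand and STARD4 at chr5:111512486-111512785 on the reverse strand.
INSIG1: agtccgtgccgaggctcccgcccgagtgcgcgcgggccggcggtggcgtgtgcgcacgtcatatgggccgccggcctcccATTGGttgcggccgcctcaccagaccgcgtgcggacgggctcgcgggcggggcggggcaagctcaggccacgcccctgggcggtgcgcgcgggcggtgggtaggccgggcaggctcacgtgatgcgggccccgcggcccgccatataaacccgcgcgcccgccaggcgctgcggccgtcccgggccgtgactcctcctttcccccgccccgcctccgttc
LSS: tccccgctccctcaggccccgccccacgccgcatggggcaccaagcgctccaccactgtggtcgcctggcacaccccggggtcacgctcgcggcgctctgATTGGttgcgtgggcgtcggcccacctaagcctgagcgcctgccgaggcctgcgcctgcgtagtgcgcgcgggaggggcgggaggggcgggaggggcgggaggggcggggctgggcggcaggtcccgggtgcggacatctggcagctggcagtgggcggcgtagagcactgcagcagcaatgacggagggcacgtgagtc
SCD: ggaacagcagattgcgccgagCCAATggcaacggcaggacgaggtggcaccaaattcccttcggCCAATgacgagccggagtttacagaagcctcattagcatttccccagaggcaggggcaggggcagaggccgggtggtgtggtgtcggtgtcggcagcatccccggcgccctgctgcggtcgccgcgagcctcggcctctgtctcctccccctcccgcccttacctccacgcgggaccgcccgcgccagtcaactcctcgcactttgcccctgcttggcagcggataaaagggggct
STARD4: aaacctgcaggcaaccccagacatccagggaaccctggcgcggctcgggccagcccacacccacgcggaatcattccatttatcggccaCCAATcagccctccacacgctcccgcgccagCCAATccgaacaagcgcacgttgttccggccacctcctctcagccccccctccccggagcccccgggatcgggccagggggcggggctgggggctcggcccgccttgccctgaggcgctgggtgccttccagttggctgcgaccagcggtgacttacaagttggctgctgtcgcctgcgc

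CCAAT was found on either strand in 17 of the 27 member promoters (63.0%), against 37.8% of the 9242 promoters of tested genes. In the sterol branch 10 of 13 windows held it, among the regulators and STARD4 3 of 6, and in the fatty acid branch 4 of 8. TCACNCCA, the core of a sterol regulatory element, was found on either strand in the windows of MVK and SREBF2, 7.41% of the member windows against 3.45% of those of tested genes. The E-box CACGTG was present in 4 member windows, including those of INSIG1 and LSS (14.8% against 10.2%), and GGGCGG, an Sp1 motif, in 24 (88.9% against 70.0%). The sterol element and CCAAT can share the letters CCA. These are matches of letters in a window and not binding sites.

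SRSF1 itself was at 14.6 RPKM in U87MG knockdown and 88.3 RPKM in U87MG control, and at 15.8 and 109 RPKM in U251 knockdown and control. By limma on log2(RPKM + 1), with the cell line as a block, it fell by 2.62 ± 0.16 (SE, n = 2 libraries per arm, adjusted p = 0.00217), a call that was lost without the block (0.9998) and without the filter on low values (0.416). A share of 0.594 of the 31-base words in its longest transcript also occurs in AC015813.2, an overlapping gene on the same strand, so its level is uncertain. Of 10 glial and neural stem cell markers, 6 reached 1 RPKM in U87MG knockdown, 4 in U87MG control, 7 in U251 knockdown and 8 in U251 control. Their summed level was 1299 and 1877 RPKM in U87MG knockdown and control, and 1431 and 1643 RPKM in U251 knockdown and control, most of it VIM. In U87MG, SOX2 and GFAP were under 0.2 RPKM and FABP7 and S100B were listed at 0, so these markers of the labelled cell type were absent or nearly so there. CD44, at 124 and 184 RPKM, and SLC1A3, at 12.8 and 13.4 RPKM in U87MG knockdown and control, were present there. In U251, GFAP was at 0.580 RPKM in the knockdown and 1.47 RPKM in the control, and S100B under 0.1 RPKM in both libraries. SOX2 was at 49.3 and 47.9 RPKM and NES at 83.7 and 61.1 RPKM in U251 knockdown and control. The 10 markers of leukocytes, endothelium, epithelium, neurons and oligodendrocytes summed to 5.43 and 4.29 RPKM in U87MG knockdown and control, and to 6.57 and 5.77 RPKM in U251 knockdown and control, with RBFOX3 listed at 0 in all 4 libraries. The part of the marker differences in the results was not tested.

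The main comparison asked whether lipid synthesis genes differed between SRSF1 knockdown and control in each line. In U251 they were mostly lower in the knockdown. Of the 31 members, 25 had a log2 ratio of (knockdown RPKM + 1) over (control RPKM + 1) below 0, with a median of -0.25. Among all 16098 genes that reached 1 RPKM in at least 1 library, 50.5% were below 0 and the median was -0.0037. U87MG was mixed, with 17 members below 0 and a median of -0.04, beside 55.5% of all tested genes below 0 and a median of -0.05. All 31 members passed this filter on low values, and 29 had at least 1 RPKM in every library.

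Each line had 1 library per arm, so nothing within a line could be checked against replicates. Whole reads were recovered from the RPKM values, and the counting interval given with each ratio of depth-scaled reads (knockdown over control, 95% Clopper-Pearson) covers counting error only. In bulk RNA, fewer cells of a kind and less RNA per cell cannot be told apart. By this interval 23 members were lower in U251 knockdown, against 30.4% of 15714 genes, and 3 were higher, against 29.2%. In U87MG knockdown 11 members were lower, against 37.7% of genes, and 11 were higher, against 26.1%. A total of 9 members were lower in both lines (20.6% of genes), and ELOVL6 was higher in both (15% of genes). The lines parted for 7 members, which were higher in U87MG knockdown and lower in U251 knockdown, as were 2.88% of genes. No member had the reverse pattern, which 5.77% of genes showed. More reads make the interval narrower, and these shares over all genes were not matched to the read numbers of the members. At 2-fold on the log2(RPKM + 1) scale, LSS was higher in U87MG and no member lower (2.33% and 3.58% of genes), while FADS1 was lower in U251 and no member higher (1.71% and 1.17% of genes).

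**Figure D1:**
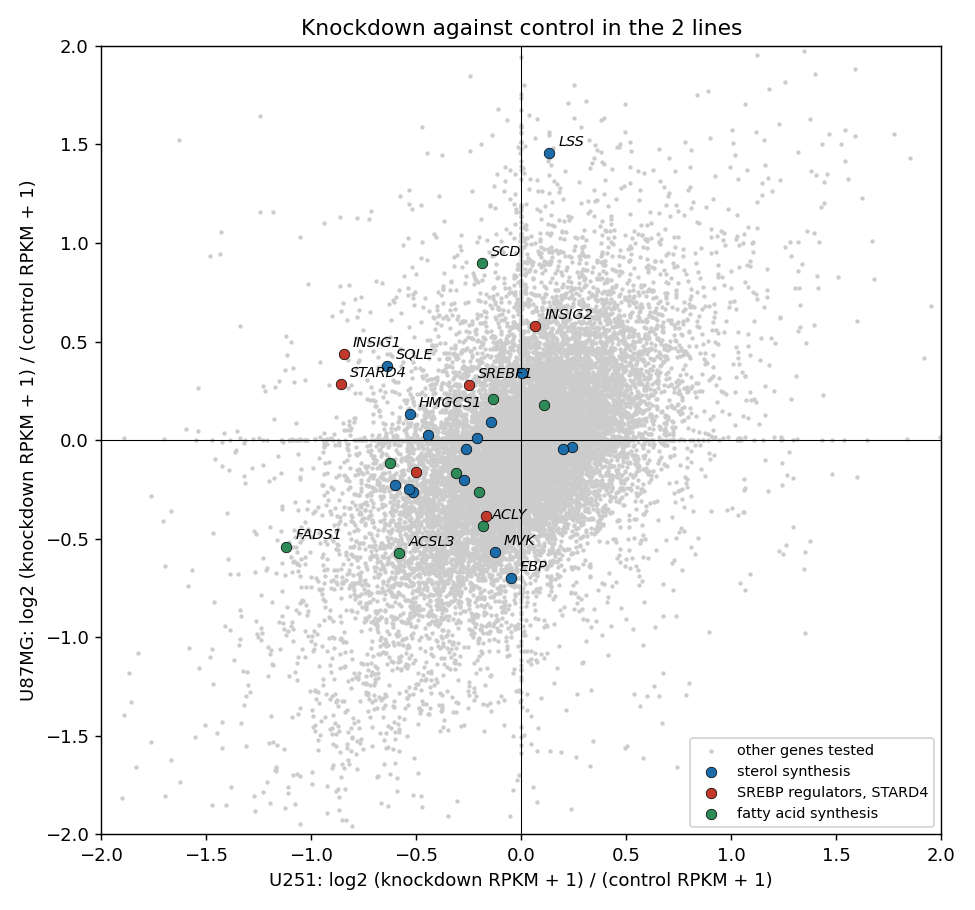
Each point is a gene, placed by its log2 ratio of knockdown over control (RPKM + 1) in U251 on the x axis and in U87MG on the y axis; grey points are the other tested genes, those beyond 2 on either axis not drawn, and coloured points the members by branch. INSIG1, STARD4, SQLE, HMGCS1, SREBF1 and SCD lie above 0 in U87MG and below 0 in U251, while FADS1 and ACSL3 lie below 0 in both.

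Across the lines, limma called none of the 31 members at an adjusted p under 0.05, while 1.16% of all tested genes were called higher and 2.61% were called lower. Without adjustment, 3 members were under 0.05, LSS, FADS1 and ACSL3, against 21.1% of all tested genes. The SE of the members' estimates ran from 0.16 to 0.29 log2 units, and the members' adjusted p from 0.0601 to 0.976. Over all genes the balance of calls depended on the scaling, with 186 higher and 420 lower (30.7% higher) as deposited and 35 higher and 45 lower (43.8% higher) after trimmed-mean rescaling.

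The SREBP regulators and the sterol carrier showed the widest gap between the lines, with a median log2 ratio of 0.28 in U87MG and -0.38 in U251. INSIG1, whose protein retains SCAP in the endoplasmic reticulum, was at 145 RPKM in U87MG knockdown and 107 RPKM in U87MG control, a read ratio of 1.36 (1.32 to 1.40). In U251 it was at 9.69 RPKM in the knockdown and 18.2 RPKM in the control (0.532, interval 0.488 to 0.579). The knockdown library was thus the higher in U87MG and the lower in U251, and across lines limma gave -0.20 ± 0.28 (adjusted p = 0.721). STARD4, a cytosolic carrier of cholesterol, followed the same pattern. It was at 12.7 RPKM in U87MG knockdown and 10.2 RPKM in U87MG control (1.24, interval 1.15 to 1.33), and at 4.81 RPKM in U251 knockdown and 9.53 RPKM in U251 control (0.504, interval 0.456 to 0.557).

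SREBF1, the gene of SREBP-1, also parted between the lines, at 5.10 RPKM in U87MG knockdown and 4.03 RPKM in U87MG control (1.26, interval 1.13 to 1.42), against 3.598 and 4.47 RPKM in U251 knockdown and control (0.805, interval 0.712 to 0.910). SREBF2, the gene of SREBP-2, was lower in both knockdown libraries. Its levels were 4.21 and 4.83 RPKM in U87MG knockdown and control, and 5.53 and 8.24 RPKM in U251 knockdown and control. SCAP, the escort of both factors, was at 4.19 and 5.77 RPKM in U87MG knockdown and control, and at 6.74 and 7.68 RPKM in U251 knockdown and control, again lower in both knockdowns. INSIG2, the second retention protein, was at 13.0 RPKM in U87MG knockdown and 8.35 RPKM in U87MG control (1.55, interval 1.39 to 1.73). In U251 its levels were 8.93 and 8.48 RPKM in knockdown and control, and the interval of the ratio (0.938 to 1.18) held 1. Gene-level values do not separate SREBP-1a from SREBP-1c.

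The sterol branch had a median log2 ratio of -0.24 in U251, with 12 of 16 members below 0, and of -0.04 in U87MG, with 9 below 0. The U87MG median turned to 0.0473 after trimmed-mean rescaling and to 0.0281 after quantile normalization. The branch starts with ACAT2, the cytosolic acetoacetyl-CoA thiolase. This gene was at 41.9 RPKM in U251 knockdown and 57.3 RPKM in U251 control (0.731, interval 0.688 to 0.777), but at 0.861 and 0.828 RPKM in U87MG knockdown and control, on 37 and 36 reads. HMGCS1, which makes HMG-CoA, was at 9.93 and 8.99 RPKM in U87MG knockdown and control (1.11, interval 1.02 to 1.19) and at 10.2 and 15.1 RPKM in U251 knockdown and control (0.672, interval 0.629 to 0.718). In U87MG the gap was small and in U251 the knockdown was clearly the lower.

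The mevalonate part of the branch held small and unlike differences. MVK, mevalonate kinase, was lower in U87MG knockdown, at 3.31 RPKM against 5.39 RPKM in U87MG control (0.613, interval 0.506 to 0.741), and stood at 2.26 and 2.56 RPKM in U251 knockdown and control. PMVK, phosphomevalonate kinase, was at 9.84 and 10.1 RPKM in U87MG knockdown and control, and higher in U251 knockdown, at 23.7 RPKM against 19.8 RPKM in U251 control (1.19, interval 1.08 to 1.32). MVD, the decarboxylase of the next step, was at 7.22 and 5.50 RPKM in U87MG knockdown and control (1.31, interval 1.12 to 1.54), with 4.21 and 4.19 RPKM in U251. IDI1, the isomerase of isopentenyl diphosphate, and FDPS, which makes farnesyl diphosphate, differed little in U87MG. IDI1 stood at 25.7 and 25.5 RPKM and FDPS at 27.0 and 25.3 RPKM in U87MG knockdown and control, and both intervals held 1. In U251 IDI1 was at 22.6 RPKM in the knockdown and 26.3 RPKM in the control (0.859, interval 0.802 to 0.921), and FDPS at 42.1 and 46.6 RPKM (0.903, interval 0.822 to 0.991), both lower in the knockdown.

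From squalene to lanosterol, SQLE and LSS differed between the lines in how knockdown and control compared. FDFT1, squalene synthase, was at 47.0 and 48.5 RPKM in U87MG knockdown and control, and at 36.2 and 43.7 RPKM in U251 knockdown and control (0.828, interval 0.782 to 0.877). SQLE, squalene epoxidase, a rate-limiting enzyme of the branch, was at 27.9 RPKM in U87MG knockdown and 21.2 RPKM in U87MG control (1.31, interval 1.23 to 1.40), but at 22.4 RPKM in U251 knockdown and 35.5 RPKM in U251 control (0.631, interval 0.595 to 0.670). LSS, which closes the sterol rings to form lanosterol, was at 25.0 RPKM in U87MG knockdown and 8.46 RPKM in U87MG control, a read ratio of 2.95 (2.74 to 3.18). In U251 its levels were 6.07 and 5.45 RPKM in knockdown and control. The U87MG knockdown library thus stood apart from the other 3, and limma across lines gave 0.80 ± 0.29 (adjusted p = 0.171). The gene (GRCh38, chr21:46188141-46228824, reverse strand) shares its region with others, and 7.88% of its exonic bases overlap other annotated genes.

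Among the later sterol enzymes, CYP51A1, lanosterol demethylase, was at 26.2 and 27.1 RPKM in U87MG knockdown and control, and at 29.997 and 26.02 RPKM in U251 knockdown and control (1.15, interval 1.09 to 1.22). A share of 0.90 of the 31-base words in its longest transcript also occurs in other annotated genes, mostly an overlapping transcript on the same strand, so its level is uncertain. EBP, the sterol isomerase, was lower in U87MG knockdown, at 27.3 RPKM against 44.9 RPKM in U87MG control (0.608, interval 0.569 to 0.648), and at 17.7 and 18.4 RPKM in U251 knockdown and control. NSDHL, a decarboxylating dehydrogenase, was lower in both knockdowns, at 21.4 and 24.8 RPKM in U87MG knockdown and control and at 14.4 and 17.6 RPKM in U251 knockdown and control. DHCR7, which makes cholesterol in the last step of one route, was lower in both as well, at 2.40 and 2.98 RPKM in U87MG knockdown and control and at 3.76 and 6.22 RPKM in U251 knockdown and control. HSD17B7, the ketoreductase, was at 3.04 and 3.80 RPKM in U87MG knockdown and control and at 5.04 and 7.74 RPKM in U251 knockdown and control, lower beyond counting error only in U251. A share of 0.27 of its words occurs in other genes, mainly the pseudogene HSD17B7P2. TM7SF2, a sterol reductase, was the weakest member, at 0.289 and 0.546 RPKM in U87MG knockdown and control and 1.09 and 1.99 RPKM in U251 knockdown and control.

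The fatty acid branch had a median log2 ratio of -0.17 in U87MG (6 of 9 below 0) and -0.20 in U251 (8 of 9 below 0). The U87MG count is near the 55.5% of all tested genes, and its median was -0.0854 after trimmed-mean rescaling and -0.0674 after quantile normalization. A ratio below 0 in both lines was found for 6 of the 9, and for 36.5% of all tested genes. FADS1, the delta-5 desaturase, was at 23.1 RPKM in U87MG knockdown and 34.1 RPKM in U87MG control (0.678, interval 0.646 to 0.713), and at 15.1 RPKM in U251 knockdown and 33.9 RPKM in U251 control (0.445, interval 0.420 to 0.470). The control libraries of both lines stood at nearly the same level, and both knockdown libraries lay below them. Limma gave -0.83 ± 0.19, the smallest adjusted p among the members but above the threshold (0.0601). ACSL3, which activates long-chain fatty acids and coats lipid droplets, was close in size in both lines. It was at 22.3 and 33.6 RPKM in U87MG knockdown and control (0.663, interval 0.630 to 0.697) and at 19.0 and 28.9 RPKM in U251 knockdown and control (0.657, interval 0.623 to 0.694), with a limma estimate of -0.58 ± 0.16 (adjusted p = 0.0984). FADS2, the delta-6 desaturase that lies next to FADS1 and overlaps 4.79% of its exonic bases, was at 1.72 and 1.95 RPKM in U87MG knockdown and control and at 1.75 and 3.24 RPKM in U251 knockdown and control (0.539, interval 0.442 to 0.657).

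The enzymes that build palmitate were all lower in both knockdowns. ACLY, which supplies cytosolic acetyl-CoA to both branches, was at 79.1 and 107 RPKM in U87MG knockdown and control (0.737, interval 0.717 to 0.757) and at 98.4 and 112 RPKM in U251 knockdown and control (0.879, interval 0.857 to 0.902). ACACA, acetyl-CoA carboxylase 1, was at 4.08 and 5.10 RPKM in U87MG knockdown and control and at 10.3 and 11.95 RPKM in U251 knockdown and control. FASN, fatty acid synthase, was at 8.41 and 9.56 RPKM in U87MG knockdown and control and at 13.0 and 16.4 RPKM in U251 knockdown and control. These differences were beyond counting error in each line, and by limma ACLY, ACACA and FASN had estimates of -0.31 ± 0.16, -0.23 ± 0.16 and -0.24 ± 0.16, with adjusted p of 0.316, 0.4497 and 0.444.

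SCD, the stearoyl-CoA delta-9 desaturase, went apart from them. It was at 71.5 RPKM in U87MG knockdown and 37.9 RPKM in U87MG control (1.89, interval 1.83 to 1.95), and at 20.5 RPKM in U251 knockdown and 23.5 RPKM in U251 control (0.872, interval 0.830 to 0.917). Next to LSS it had the highest log2 ratio in U87MG (0.90). ELOVL5, an elongase of polyunsaturated chains, showed the same split at a smaller size, at 48.4 and 41.8 RPKM in U87MG knockdown and control and at 65.6 and 72.2 RPKM in U251 knockdown and control. ELOVL6, which extends palmitate to stearate, was at 18.5 and 16.2 RPKM in U87MG knockdown and control and at 22.0 and 20.4 RPKM in U251 knockdown and control.

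**Figure D2:**
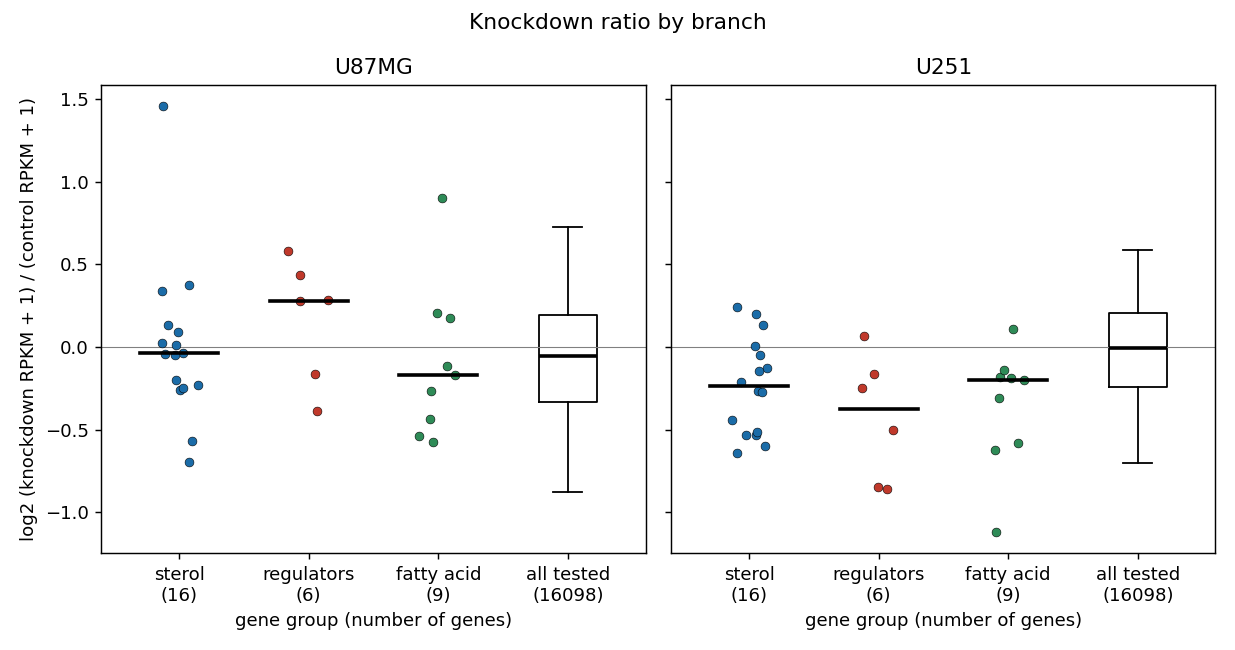
Points give the log2 ratio of knockdown over control (RPKM + 1) of each member by branch, for U87MG on the left and U251 on the right, with a bar at the branch median; the box shows the quartiles and median of all 16098 tested genes, with whiskers at the 5th and 95th percentile. The regulators have a median of 0.28 in U87MG and -0.38 in U251, and the fatty acid branch -0.17 and -0.20.

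Summed over the 16 sterol enzymes, the level was 264.4 RPKM in U87MG knockdown and 263.9 RPKM in U87MG control, and 284 RPKM in U251 knockdown against 335 RPKM in U251 control. The 9 fatty acid genes summed to 277 and 287 RPKM in U87MG knockdown and control, and to 266 and 322 RPKM in U251 knockdown and control. Both sums were lower in U251 knockdown than in its control, and nearly level in U87MG. The level sums in U87MG held opposite differences. SCD, LSS and SQLE were higher in U87MG knockdown, while ACLY, EBP, FADS1 and ACSL3 were lower. Among the members, 24 of 31 had a higher ratio in U87MG than in U251, as had 42.9% of all tested genes. The difference between the lines could not be tested, since the interaction of line and arm leaves no residual degree of freedom.

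The second comparison set the lines against each other, with the arm as a covariate and n = 2 libraries per line. Limma called 7 members higher in U87MG and 11 lower (21.6% and 27% of all tested genes). ACAT2 differed most. U87MG knockdown and control had 0.861 and 0.828 RPKM, and U251 knockdown and control 41.9 and 57.3 RPKM (-4.76 ± 0.18 log2 units, U87MG minus U251, adjusted p = 1.67e-06). The level in U87MG was 0.0206 times that of U251 between the knockdown libraries and 0.0144 times between the controls. The gene is at chr6:159760328-159779055 on the forward strand of GRCh38. Other annotated genes, the largest overlap being SOD2-OT1 on the opposite strand, cover 52.3% of its exonic bases, and the strand setting of the counting is not given in the sources used here.

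INSIG1 was the member with the largest difference in the other direction, with 145 and 107 RPKM in U87MG knockdown and control against 9.69 and 18.2 RPKM in U251 knockdown and control (3.13 ± 0.28, adjusted p = 0.0001). It ranked 1st and 2nd among the 31 members in U87MG knockdown and control, and 19th and 15th in U251 knockdown and control. For ACAT2 and INSIG1, and for other members such as ACACA, FDPS and EBP, no library of one line overlapped those of the other. With 2 libraries per line such separation can arise without a difference, and its share over all genes was not counted. LSS (1.22 ± 0.29, adjusted p = 0.01003), SCD (1.21 ± 0.25, adjusted p = 0.00603) and EBP (0.92 ± 0.20, adjusted p = 0.00696) were also higher in U87MG, with MVK, NSDHL and MVD at 0.62, 0.51 and 0.49. Several of these differences were unequal in the arms. LSS was at 1.88 between the knockdown libraries and 0.55 between the controls, and SCD at 1.75 and 0.66. EBP, at 0.60 between the knockdown libraries and 1.24 between the controls, and MVK, at 0.40 and 0.85, went the other way, while MVD was at 0.66 and 0.32.

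Lower in U87MG were ACACA (-1.12 ± 0.16, adjusted p = 0.00108), PMVK (-1.05 ± 0.17, adjusted p = 0.00185), FDPS (-0.74 ± 0.17), HSD17B7 (-0.72 ± 0.17), DHCR7 (-0.67 ± 0.18), FASN (-0.65 ± 0.16), ELOVL5 (-0.60 ± 0.17) and TM7SF2 (-0.83 ± 0.22). SREBF2 (-0.49 ± 0.17) and SCAP (-0.47 ± 0.17) were called lower at adjusted p of 0.0460 and 0.0483, and both calls were lost after rescaling. SREBF2 was at -0.32 between the knockdown libraries and -0.66 between the controls. The other 13 members were not called. SQLE and STARD4 had unlike differences in the arms, SQLE at 0.30 between the knockdown libraries and -0.72 between the controls, and STARD4 at 1.23 and 0.09.

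**Figure D3:**
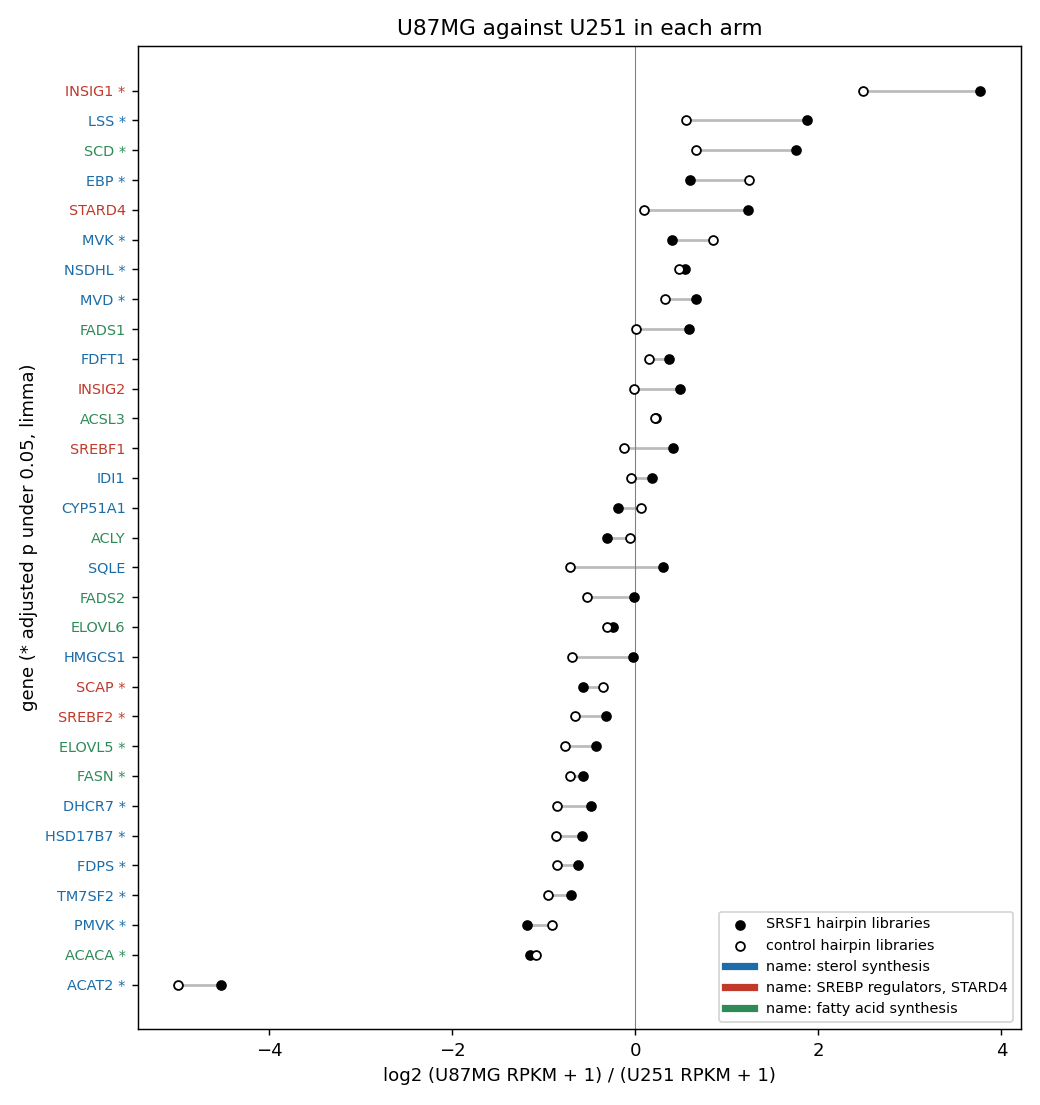
For each member, the log2 ratio of U87MG over U251 (RPKM + 1) is drawn between the SRSF1 hairpin libraries (filled) and between the control hairpin libraries (open), with genes sorted by the mean and coloured by branch, and an asterisk where limma gave an adjusted p under 0.05. INSIG1 is at the top and ACAT2 at the bottom, and INSIG1, LSS, SCD and STARD4 are spread widest to the right in the knockdown libraries.

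**Figure D4:**
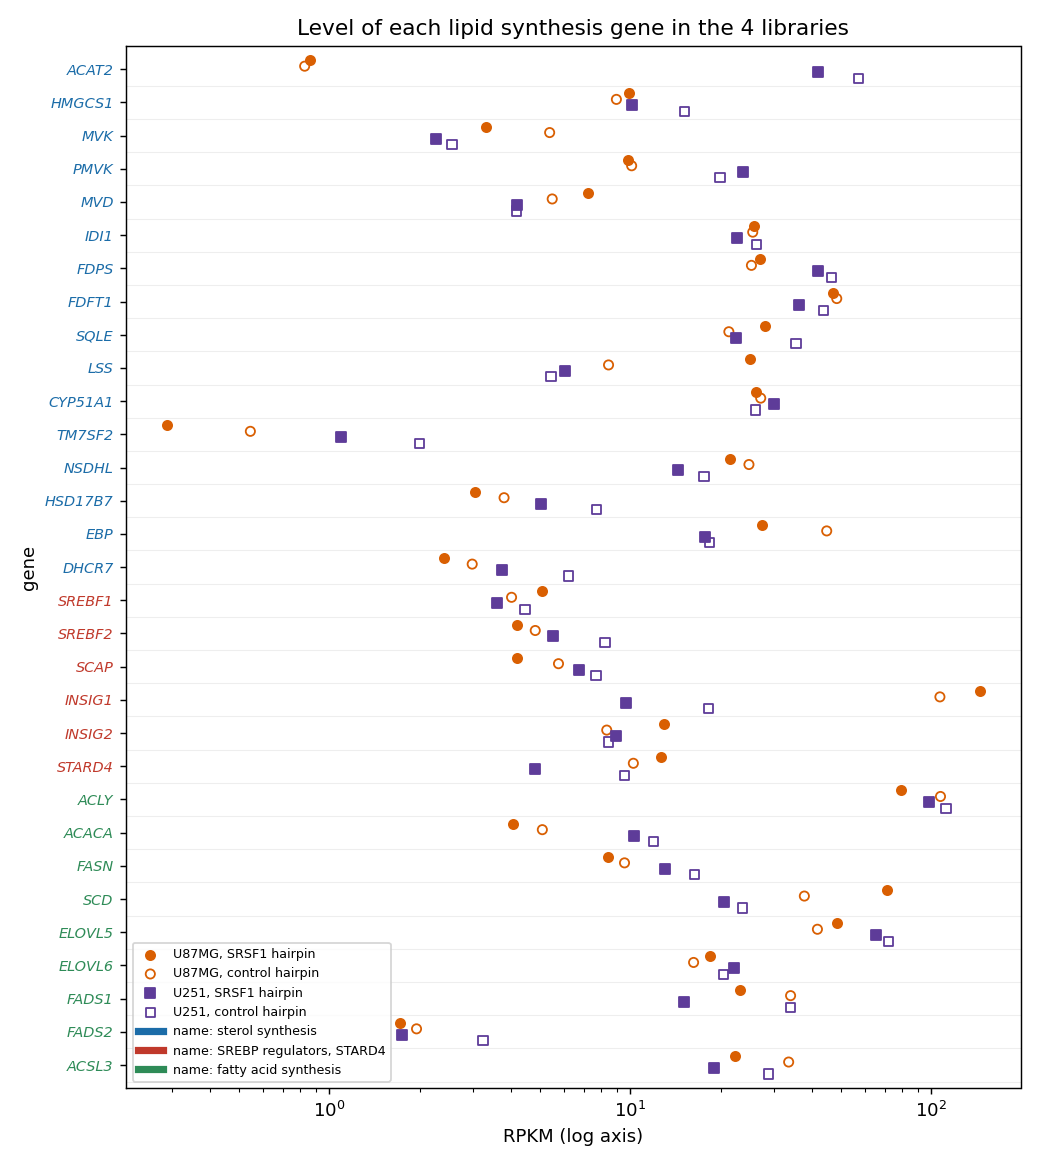
The RPKM of each member is shown on a log axis in U87MG (circles) and U251 (squares), filled for the SRSF1 hairpin and open for the control hairpin. ACAT2 and INSIG1 differ most between the lines, though other members separate them too, and ACLY is among the top 2 members in all 4 libraries.

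Other genes of the pathway were taken from lists of known function. Those named without a limma call were picked after their values were seen. Of 25 further genes of synthesis, elongation and SREBP cleavage, 22 were measured and none was called by limma between knockdown and control. Over all tested genes, 1.16% were called higher and 2.61% lower. Before adjustment 2 (ACSL4 and ELOVL4) were under 0.05, against 21.1% of all tested genes. Between the lines limma called 9 higher in U87MG and 7 lower (21.6% and 27% of all tested genes). The median log2 ratio of knockdown over control of the 22 genes was 0.11 in U87MG and -0.01 in U251. ELOVL7, an elongase of long chains, had the split seen in SCD. It was at 17.3 and 9.77 RPKM in U87MG knockdown and control and at 4.43 and 6.03 RPKM in U251 knockdown and control. FADS3 also had this split beyond the counting interval (2.88% of genes). MID1IP1 had the reverse (5.77% of genes), with read ratios of 0.932 in U87MG and 1.33 in U251. ACSL4, which activates arachidonate, was higher in both, at 55.2 and 37.1 RPKM in U87MG knockdown and control and at 96.5 and 72.4 RPKM in U251 knockdown and control. The proteases that cut SREBP, MBTPS1 and MBTPS2, had limma estimates of 0.24 ± 0.17 and 0.06 ± 0.16.

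Of 10 genes of sterol efflux, storage and oxysterol signalling, 9 were measured. Limma called 1 of them lower in the knockdown and none higher (2.61% and 1.16% of all tested genes). Between the lines it called ABCA1, NPC1 and CH25H higher in U87MG and MYLIP lower (21.6% and 27% of all tested genes). NCEH1, a hydrolase of cholesterol esters, fell to 13.3 RPKM in U87MG knockdown, against 24.3 RPKM in U87MG control, and to 9.98 RPKM in U251 knockdown, against 24.02 RPKM in U251 control (-1.004 ± 0.18, adjusted p = 0.0288 by limma). Its adjusted p ran from 0.0110 to 0.9998 over the alternatives, and the call was lost after trimmed-mean rescaling (0.0654). SOAT1, which esterifies cholesterol, was at 18.1 and 11.5 RPKM in U87MG knockdown and control and at 9.55 and 12.5 RPKM in U251 knockdown and control. NPC2, a lysosomal cholesterol carrier, was at 60.5 and 40.4 RPKM in U87MG knockdown and control and at 35.0 and 44.6 RPKM in U251 knockdown and control. Like INSIG1 and STARD4, both lay above the control in U87MG and below it in U251, as did 2.88% of genes beyond the counting interval. NPC1, its membrane partner, was far higher in U87MG, with 71.8 and 53.7 RPKM in U87MG knockdown and control and 6.23 and 5.85 RPKM in U251 knockdown and control (3.16 ± 0.17, adjusted p = 8.82e-06).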

How the data were processed

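RPKM values per gene were deposited by the authors in 1 table with a column for each of the 4 libraries. Per the submitters' processing notes, Bowtie 0.12.2 and the build hg19 were used; for the counting program, annotation and strand setting, nothing was given in the sources used here. Reads of overlapping genes, on either strand, may therefore be mixed. Columns were assigned by sample title. The members and lists were chosen with earlier results of these data known, and every member is named; of the other pathway genes the rule named those called.

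Whole reads came from the steps of low RPKM values (1429 low genes for relative depth) and from short RNA genes of known length (532 of 637 gave the same total). Of 27973 genes above 0, 27928 (99.8%) came out whole within 0.01 reads; reads are the smallest whole numbers possible. Intervals are 95% Clopper-Pearson and cover counting error only.

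Limma 3.58.1 (R 4.3.3) was fitted to log2(RPKM + 1) of the 16098 genes with at least 1 RPKM in 1 library, with line and arm as terms and an intensity trend, two-sided, with Benjamini-Hochberg adjustment over all of them. It leaves 1 residual degree of freedom. On simulated data it called more unchanged genes than the 5% aimed at. In both comparisons, the spread behind each p-value is how far the lines disagreed in the knockdown ratio, moderated by the spread of all genes. It is not a spread of replicates, and nothing says whether libraries came from separate cultures. Alternatives were another pseudocount, other filters, 2 rescalings, no block, no trend and leaving out a line or an arm. Words of 31 bases were compared over GENCODE 29 transcripts; positions are GRCh38 and none were converted. Other steps ran in Python 3.11.15 (scipy 1.17.1, pandas 2.3.3 and numpy 2.4.6); figures were drawn with matplotlib 3.10.9.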

Additional observations from a re-analysis of the deposited data

Results flagged for a closer look

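A total of 7 members were flagged, as the knockdown library lay above its control in U87MG and below it in U251. Each of these differences was beyond the counting interval. Of 15714 genes, 2.88% showed this pattern, a share not matched to the members' read numbers. With 1 library per line and arm, the differences between the lines were not tested. The log2 ratios of knockdown over control were 0.44 in U87MG and -0.85 in U251 for INSIG1, 0.28 and -0.86 for STARD4, and 0.28 and -0.25 for SREBF1. For the sterol enzymes they were 0.38 and -0.64 for SQLE and 0.13 and -0.53 for HMGCS1. In the fatty acid branch SCD had 0.90 and -0.19, and ELOVL5 0.21 and -0.14.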

How the results depend on the processing

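The labels give no replicate numbers, and the cell line as a block pairs the arms within each line. Without that block 0 genes were called higher and 0 lower between knockdown and control over all genes (79 and 183 at an unadjusted p under 0.05 by limma), and without a filter on low values 0 and 0 (1234 and 1890). Trimmed-mean rescaling gave 35 higher and 45 lower, quantile normalization 315 higher and 513 lower, and eBayes without trend 88 higher and 172 lower. Members called lower went to 1, FADS1, with a mean RPKM of at least 5 (adjusted p = 0.0294) and with quantile normalization (adjusted p = 0.0474), within a range of 0.0294 to 0.9998 over its alternatives. NCEH1 was not called after trimmed-mean rescaling (adjusted p = 0.0654), without trend (0.0520), without the filter (0.416) or without the block (0.9998). The last 2 settings also left SRSF1 uncalled, at the same adjusted p-values. The U87MG median of the sterol branch turned to 0.0473 after trimmed-mean rescaling and 0.0281 after quantile normalization. FDPS turned to 0.0257 between knockdown and control, and CYP51A1 to 0.0302 between the lines, both after trimmed-mean rescaling. Between the lines SREBF2 was not called after trimmed-mean rescaling or quantile normalization (adjusted p = 0.0927 and 0.0881), nor SCAP after these (0.0819 and 0.0846) or with a pseudocount of 0.1 (0.0511), while STARD4 was called with quantile normalization (0.0385). Leaving out a line leaves the ratio of the other, with no test. LSS then ran from 0.13 to 1.46, INSIG1 from -0.85 to 0.44 and FADS1 from -1.12 to -0.54. TM7SF2 in U87MG rests on 12 and 23 reads in knockdown and control, too few to place its ratio.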
